A study of Danio rerio with 6 samples.

Results

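Macrophage marker genes were followed in liver RNA of zebrafish offspring, with the copies of MFAP4 and the gene irg1l described one by one. The genes were chosen by symbol, as rows of the deposited count table listed as MFAP4, as mfap4. and a number, or as mpeg1.1, marco, csf1ra, irg1l, c1qa, c1qb or c1qc. This gave 21 of the 32520 rows: 8 listed as MFAP4, 7 named mfap4. and a number, and 6 of the other symbols. No row carries the symbol mpeg1.1. In its place 3 rows listed as MPEG1, which were not part of the set, are given beside the others. Which of them, if any, is mpeg1.1 could not be told from the symbols.

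The study compared offspring sired with cryopreserved sperm and offspring sired with fresh sperm. All fish were wild type and of the AB strain, a common laboratory line, and each of the 6 libraries holds poly-A RNA of liver. The control group had 3 libraries (fresh replicates 1 to 3) and the cryopreserved sperm group had 3 (cryo replicates 1 to 3). The labels name neither age nor sex, nor how many fish went into a library, and p-values therefore cover the spread among libraries and no more.

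Macrophages engulf microbes, dead cells and old red cells, and the liver holds a resident population of them. The gene csf1ra encodes a receptor that takes part in their survival, and marco encodes a scavenger receptor on their surface. MFAP4 proteins are secreted and carry a fibrinogen-related domain; in mammals MFAP4 binds elastic fibres, and in zebrafish an mfap4 promoter is used to mark macrophages. The gene irg1l is a relative of ACOD1, which in mammals encodes the enzyme that makes itaconate in activated macrophages, and in zebrafish larvae irg1l has also been described in skin cells during inflammation. The chains of C1q, encoded by c1qa, c1qb and c1qc, start the classical complement pathway, and in mammals macrophages are a main source of them.

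Total counts were 16885619 to 17606733 in the fresh libraries and 8277183 to 16146121 in the cryo libraries. Cryo replicates 2 and 3 stood apart by vitellogenin RNA, the yolk precursor transcript that oestrogen induces in liver, which made up 17.4% and 12.4% of their counts and at most 6.04e-04% of those in each of the other 4 libraries. No fresh library held such a share, so the sperm group and the vitellogenin state cannot be fully told apart in the changes given below. Levels are CPM on TMM-normalised library sizes, and 1 count was worth 0.0544 to 0.142 CPM. A gene entered the test if enough libraries passed about 0.605 CPM, here on total counts. It was called if its adjusted p was under 0.05 by edgeR's quasi-likelihood test with Benjamini-Hochberg adjustment over all tested genes. Of the 21 genes 11 were tested: 6 MFAP4 copies, marco, csf1ra, irg1l, c1qa and c1qb. The other 10 were too low, with 1 to 28 counts each over all 6 libraries. Among the 11, MFAP4 ENSDARG00000090783 passed the filter through cryo libraries alone and c1qb through fresh libraries alone.

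Of the 11 tested genes, 2 were called, and both were MFAP4 copies that rose in the cryopreserved sperm group. Over all 12674 tested genes 1.98% were called, 1.02% as higher and 0.963% as lower. Of the same 12674 genes, 2351 had an unadjusted edgeR p under 0.05, DESeq2 called 1136 and limma-voom called 257. These numbers are the base for the list counts given below. The receptor gene csf1ra and irg1l had higher values in every cryo library than in any fresh library without passing the test, and c1qb had lower ones. The most abundant MFAP4 copy differed more among the fresh libraries than between the groups. Groups did not overlap for 5 of the 11 genes upward and 1 downward, against 24.6% of all tested genes, 11.2% upward and 13.4% downward. These include MFAP4 ENSDARG00000090783, also 1 of the 2 called, and c1qb, the downward gene. Each was in the test because 1 group was high, so neither counts as separate support. For irg1l only 1 fresh library passed the filter minimum, and for MFAP4 ENSDARG00000089667 only 2, against 3 cryo libraries for each. Their place in the test leaned on the cryo group too, so they are not separate support either. The call of both MFAP4 copies was lost in 5 of the 6 fits that left out 1 library. Over all tested genes those 5 fits called 32 to 149 genes, against 251 in the main fit. The fit without cryo replicate 1, which kept both calls, called 873. These totals are the base for member calls with 1 library left out.

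**Figure D1:**
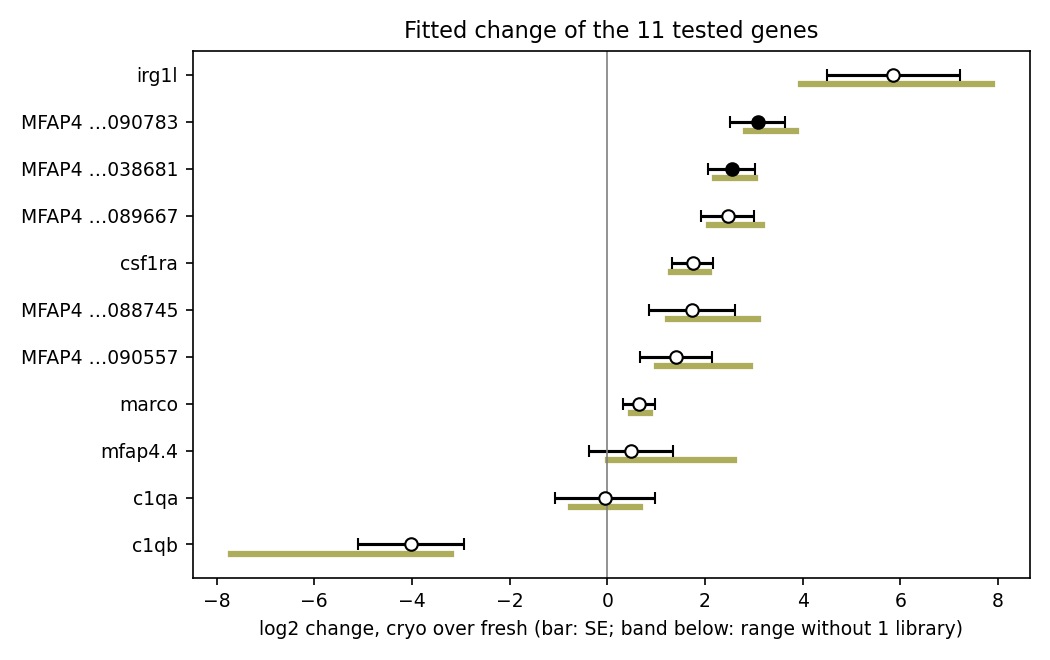
Fitted log2 change of the 11 tested genes, cryo over fresh. Points are fitted values (filled where the adjusted p is under 0.05), bars are 1 SE, and the band under each point spans the values when 1 library at a time is left out; names are shortened to the end of the Ensembl identifier. The 2 filled points are MFAP4 copies at 3.09 and 2.55, while irg1l at 5.86 and c1qb at -4.02 have wider bars.

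The MFAP4 family was read almost wholly from 1 row. MFAP4 ENSDARG00000090557 had 23777, 3500 and 4337 counts in fresh replicates 1, 2 and 3, and 27827, 13367 and 11020 in cryo replicates 1, 2 and 3. On the CPM scale these were 1398, 191 and 259 against 1800, 1896 and 1223. Fresh replicate 1 lay among the cryo libraries and the other fresh libraries lay far below, so the groups overlapped. The means were 616 ± 678 CPM in the fresh group (SD, n = 3) and 1640 ± 364 CPM in the cryo group (SD, n = 3). The log2 change of 1.41 ± 0.74 (SE) did not pass (edgeR adjusted p = 0.354). Without fresh replicate 1 it was 2.92 with an adjusted p of 0.062, still short of the threshold.

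This copy held 96.1% to 97.5% of all MFAP4 counts in each library. Fresh replicates 1, 2 and 3 had shares of 96.8% (95% Wilson interval 96.6 to 97.0), 97.3% (96.75 to 97.8) and 96.1% (95.5 to 96.6). In cryo replicates 1, 2 and 3 the shares were 97.5% (97.3 to 97.7), 97.5% (97.2 to 97.7) and 96.6% (96.3 to 96.9), and these intervals cover counting error only. The group means of 96.75% ± 0.618 and 97.2% ± 0.505 (SD, n = 3 each) overlapped in range, and a two-sided exact permutation test over libraries gave p = 0.50, where 3 against 3 cannot go below 0.10. The share is one of reads: gene lengths of this build were not used here, so it does not rank copies by transcript number. With all 15 copies summed into 1 row, the log2 change was 1.41 ± 0.74 (edgeR adjusted p = 0.356). With the leading copy left out of the sum, a choice made after its values were seen, it was 1.17 ± 0.70 (adjusted p = 0.417).

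The copy mfap4.4, like the leading copy, was low in fresh replicates 2 and 3, but the libraries above these were ordered differently. It had 38.6, 2.61 and 4.79 CPM in fresh replicates 1, 2 and 3, and 22.6, 19.3 and 22.4 CPM in cryo replicates 1, 2 and 3. Here too fresh replicate 1 was high, above every cryo library, and the other fresh libraries were low. Its log2 change was 0.49 ± 0.87 (edgeR adjusted p = 0.816), and without fresh replicate 1 it was 2.59 with an adjusted p of 0.0497. The count of mfap4.4 was 2.76%, 1.37% and 1.85% of that of the leading copy in fresh replicates 1, 2 and 3, and 1.26%, 1.02% and 1.83% in cryo replicates 1, 2 and 3. The log2 ratio of the pair was -5.70 ± 0.501 in the fresh group and -6.23 ± 0.43 in the cryo group (SD, n = 3 each), with overlap and an exact permutation p of 0.20.

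**Figure D2:**
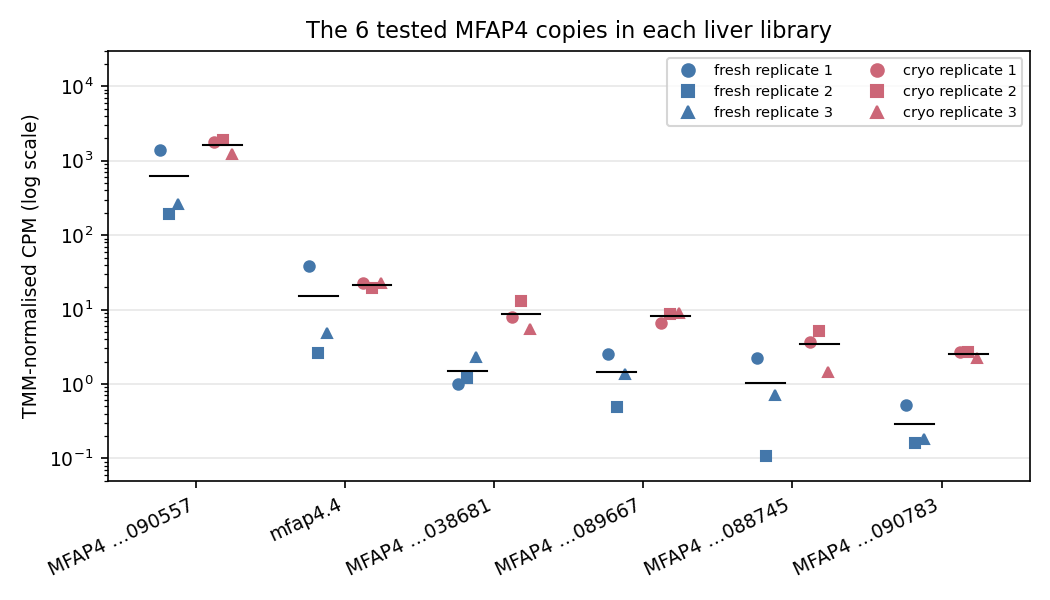
TMM-normalised CPM (log scale) of the 6 tested MFAP4 copies; each point is 1 library, shaped by replicate number and coloured by group, and lines are group means. For the leading copy at the left and for mfap4.4 beside it, fresh replicate 1 (1398 and 38.6 CPM) lies with or above the cryo libraries, while ENSDARG00000038681, ENSDARG00000089667 and ENSDARG00000090783 show no overlap of the groups.

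Of the copies with fewer counts, 3 showed no overlap of the groups. MFAP4 ENSDARG00000038681 had 17, 22 and 38 counts in fresh replicates 1, 2 and 3 and 121, 92 and 49 in cryo replicates 1, 2 and 3. Every cryo library was above every fresh one although all cryo libraries were shallower, with means of 8.77 ± 3.89 against 1.49 ± 0.685 CPM (SD, n = 3 each). It rose by 2.55 ± 0.48 on the log2 scale (edgeR adjusted p = 0.042). Fresh replicate 1, high for the leading copy, was the lowest library for this one.

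MFAP4 ENSDARG00000090783 had 9, 3 and 3 counts in fresh replicates 1, 2 and 3 and 41, 19 and 20 in cryo replicates 1, 2 and 3. The cryo values lay close together, at 2.65, 2.70 and 2.22 CPM, against 0.529, 0.163 and 0.179 CPM in the fresh libraries. The log2 change was 3.09 ± 0.56 (edgeR adjusted p = 0.0407). Pooled over libraries its level was 8.82-fold higher in the cryo group, with a 95% interval of 5.04 to 16.5 that covers counting error only.

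Left without 1 library at a time, the call of both copies stayed only without cryo replicate 1 (adjusted p = 0.0342 and 0.042). The other 5 fits gave adjusted p up to 0.153 for ENSDARG00000038681 and up to 0.185 for ENSDARG00000090783, at log2 changes from 2.20 to 3.02 and from 2.84 to 3.86. When both libraries with vitellogenin RNA were dropped, so that cryo replicate 1 stood alone, the changes were 2.43 and 3.21 (adjusted p = 0.116 and 0.146). That fit has no spread of its own in the cryo group, and cryo replicate 1 is assumed to vary like the fresh libraries.

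The remaining tested copies had the same sign without passing. MFAP4 ENSDARG00000089667 had 43, 9 and 23 counts in fresh replicates 1, 2 and 3 and 102, 62 and 81 in cryo replicates 1, 2 and 3, with no overlap in CPM. Its log2 change was 2.47 ± 0.55 (edgeR adjusted p = 0.0666), and it was called by DESeq2 (adjusted p = 5.07e-04), by limma-voom (0.0481) and without the low-count filter (0.0173). It was not called in any fit without 1 library (adjusted p = 0.0513 to 0.241). MFAP4 ENSDARG00000088745 had 38, 2 and 12 counts in the fresh libraries and 57, 36 and 13 in the cryo libraries. Cryo replicate 3 was below fresh replicate 1 there, and the log2 change was 1.73 ± 0.88 (adjusted p = 0.345). Reads of near-identical copies may be split between these rows, which makes each copy's own value uncertain.

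Of the 9 copies too low to test, ENSDARG00000111491 had 5 counts in fresh libraries and 0 in cryo libraries. ENSDARG00000116066 had 3 counts, all in cryo replicate 3, and ENSDARG00000038683 had 1, in cryo replicate 1. The copy mfap4.9 had 10 of its 11 counts in cryo replicate 1, and mfap4.10 had 13 of 22 there. The copies mfap4.6, mfap4.7, mfap4.8 and mfap4.11 had 22, 15, 28 and 9 counts over all libraries, spread over both groups. At these depths no difference between groups could be read. In a RefSeq gene table of another assembly, GRCz12tu, 13 genes named mfap4. and a number lie on 1 chromosome, within a run of 26 protein-coding genes, and 6 of the 7 such symbols of the count table are among them.

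The gene irg1l was close to absent from fresh libraries. It had 11, 0 and 2 counts in fresh replicates 1, 2 and 3 and 77, 269 and 25 in cryo replicates 1, 2 and 3. On the CPM scale these were 0.647, 0 and 0.12 against 4.98, 38.2 and 2.78, and the 0 allows up to 0.163 CPM at 3 counts. All cryo libraries were above all fresh ones, but cryo replicate 2 held 269 of the 371 cryo counts. The log2 change was 5.86 ± 1.36 (edgeR adjusted p = 0.0741). It passed by DESeq2 (adjusted p = 0.00848), without the low-count filter (0.00866) and without cryo replicate 1 (0.0408). It did not pass by limma-voom (adjusted p = 0.176) or without any other single library (up to 0.255). Leaving out fresh replicate 1, which held 11 of the 13 fresh counts, gave a log2 change of 7.87 (adjusted p = 0.119). Leaving out cryo replicate 2 gave 3.96 (adjusted p = 0.123), and cryo replicate 1 alone against the fresh libraries gave 4.31 (adjusted p = 0.171).

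Its relative ACOD1 was too low to test, with 9, 0 and 0 counts in fresh replicates 1, 2 and 3 and 27, 20 and 4 in cryo replicates 1, 2 and 3. Of 10 tested genes in a list of itaconate and inflammatory response genes, 0 were called by edgeR, 1 by DESeq2 and 0 by limma-voom, with 2 at an unadjusted edgeR p under 0.05. The median log2 change was 0.13 with 5 positive, against a median of 0.0015 over all tested genes. The list's mean log2 level relative to the fresh mean was 0.82 in cryo replicate 2, the library with the most irg1l, and -0.02 and -0.29 in cryo replicates 1 and 3.

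Markers of skin were measured because of the skin cells named for irg1l. Of 13 keratinocyte genes 4 were at 0 in every library (krt5, cyt1l, epcam and cldni) and 4 were tested. All 4 were positive and 0 were called by edgeR, DESeq2 or limma-voom, with 3 at an unadjusted edgeR p under 0.05. Their summed level was 21.5 to 38.3 CPM in the fresh libraries and 166, 82.4 and 27.3 CPM in cryo replicates 1, 2 and 3. The highest keratinocyte sum was in cryo replicate 1 and the highest irg1l value in cryo replicate 2. Whether rows at 0 in every library, here and in the lists below, had no RNA or were missed in counting was not checked. The part of skin cells in the irg1l values was not tested.

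Genes whose profile over the 6 libraries was nearest to that of irg1l were found among 7102 named genes with a mean of at least 5 CPM. The measure was the root-mean-square difference of log2 CPM, each gene centred on its own mean. Choice by this measure favours genes that share the high and low libraries of the gene compared. The nearest were si:ch211-153b23.5 at 0.90, EPX (ENSDARG00000019521) at 0.91 and FGF19 at 0.92. The row listed as EPX is a peroxidase gene of granulocytes. FGF19 in mammals encodes a gut hormone that restrains bile acid synthesis. The median over all genes compared was 2.77. EPX had 2.35, 0.109 and 0.12 CPM in fresh replicates 1, 2 and 3 and 35.8, 102 and 3.997 CPM in cryo replicates 1, 2 and 3, with cryo replicate 2 highest as for irg1l. It was not called (log2 5.77, edgeR adjusted p = 0.088), while FGF19 rose (log2 5.13, adjusted p = 0.0251).

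Neutrophil markers were listed apart. Of 10 symbols 7 matched, to 8 genes, of which 5 were tested, 4 of them positive. Of these 5 genes, 0 were called by edgeR, DESeq2 or limma-voom and 2 had an unadjusted edgeR p under 0.05. The list names the gene mpx, but genes were matched by symbol alone, and the EPX row given above was not among the matches. Whether that row is mpx was not checked, so the list may lack this marker. DESeq2 called the EPX row (adjusted p = 0.00638) and limma-voom did not (0.200), at an unadjusted edgeR p of 0.00416. The list's sums leave out its 102 CPM in cryo replicate 2. The summed level was 11.4 to 13.4 CPM in the fresh libraries and 22.7, 32.1 and 13.5 CPM in cryo replicates 1, 2 and 3. The most abundant of the list, nccrp1, had 6.06, 8.33 and 6.40 CPM in fresh replicates 1, 2 and 3 and 11.97, 9.08 and 9.21 CPM in cryo replicates 1, 2 and 3, so its highest library was cryo replicate 1, not that of irg1l. Its log2 change was 0.54 ± 0.27 (edgeR adjusted p = 0.339). MMP9, a matrix protease of neutrophils and inflamed tissue, had 2.59, 1.198 and 4.01 CPM in fresh replicates 1, 2 and 3 and 1.81, 13.3 and 1.11 CPM in cryo replicates 1, 2 and 3. The high sum of cryo replicate 2 thus included 13.3 CPM of MMP9, whose groups overlapped. Averaged over the 5 tested genes, nccrp1 and MMP9 among them, the log2 level relative to the fresh mean was also highest there, at 1.42. This average was 0.70 for cryo replicate 1 and -0.10 for cryo replicate 3, so the cryo libraries had the same order as for irg1l. The fresh libraries ran from -0.42 to 0.26, and the groups overlapped. The part of granulocytes in the irg1l values was not tested.

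**Figure D3:**
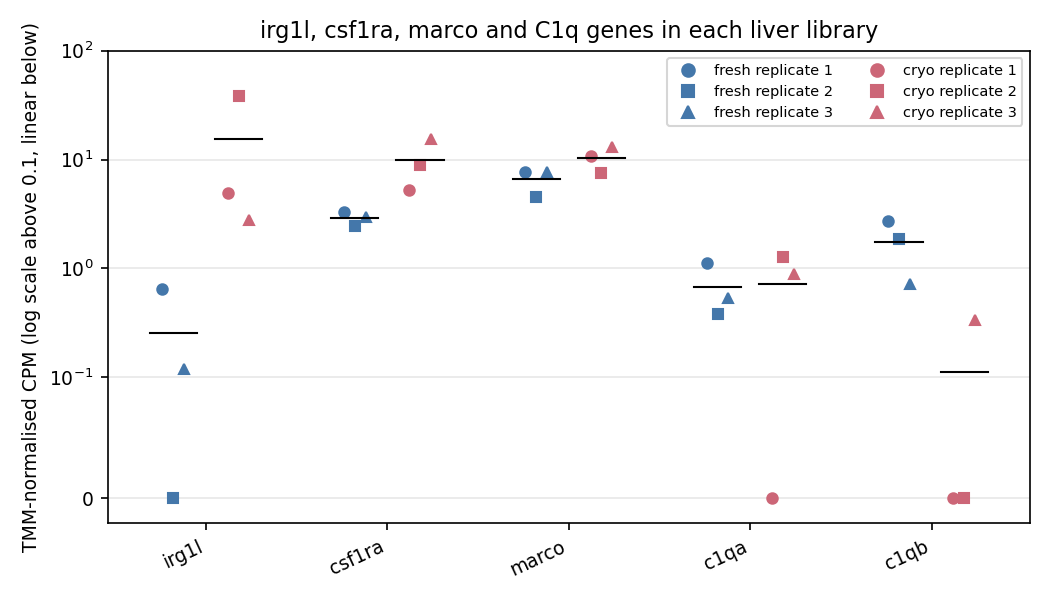
TMM-normalised CPM of irg1l, csf1ra, marco, c1qa and c1qb (scale logarithmic above 0.1 and linear below, so that 0 can be shown); each point is 1 library, shaped by replicate number and coloured by group, and lines are group means. The cryo points of irg1l spread from 2.78 to 38.2 CPM, those of csf1ra lie above all fresh points, and c1qb is at 0 in cryo replicates 1 and 2.

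The receptor gene csf1ra had 3.29, 2.45 and 2.99 CPM in fresh replicates 1, 2 and 3 and 5.30, 8.94 and 15.3 CPM in cryo replicates 1, 2 and 3. The fresh values lay within a narrow range, and every cryo value was above it. The means were 2.91 ± 0.427 and 9.85 ± 5.07 CPM (SD, n = 3 each), and the log2 change of 1.75 ± 0.42 fell short of the threshold (edgeR adjusted p = 0.0804). It passed by DESeq2 (adjusted p = 0.00472), without the low-count filter (0.0365) and without cryo replicate 1 (0.0214, log2 2.08). It did not pass by limma-voom (adjusted p = 0.115) or without any other single library (up to 0.255). Cryo replicate 1 alone against the fresh libraries gave 0.91 (adjusted p = 0.301), and the other cryo libraries, with the higher csf1ra values, were those that also held vitellogenin RNA. In bulk RNA, more cells of a type and more RNA of a gene per cell cannot be told apart.

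The scavenger receptor gene marco had a smaller fitted change than csf1ra, and its groups overlapped. Fresh replicates 1, 2 and 3 had 7.70, 4.52 and 7.72 CPM, and cryo replicates 1, 2 and 3 had 10.7, 7.52 and 12.99 CPM. Cryo replicate 2, the highest library for irg1l, was within the fresh range for marco. The log2 change was 0.65 ± 0.34 (edgeR adjusted p = 0.349).

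MPEG1 encodes perforin-2, a pore-forming protein of macrophages. Of the 3 rows listed as MPEG1, ENSDARG00000078569 was at 0 in every library. ENSDARG00000055290 had 7, 5 and 9 counts in fresh replicates 1, 2 and 3 and 33, 9 and 24 in cryo replicates 1, 2 and 3, and ENSDARG00000043093 had 25, 6 and 8 against 24, 76 and 17. In CPM both were higher in all cryo libraries, with log2 changes of 2.30 ± 0.51 and 2.60 ± 0.91 that did not pass (edgeR adjusted p = 0.0671 and 0.182). Cryo replicate 2 was the highest library for ENSDARG00000043093, at 10.8 CPM, and the lowest cryo library for ENSDARG00000055290, at 1.28 CPM.

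C1q genes had lower or overlapping values in the cryo group. The gene c1qb had 46, 34 and 12 counts in fresh replicates 1, 2 and 3, and 0, 0 and 3 in cryo replicates 1, 2 and 3. In CPM these were 2.70, 1.85 and 0.718 against 0, 0 and 0.333, and the groups did not overlap. Pooled over libraries the level in the fresh group was 18.6 times that in the cryo group, with a 95% counting interval of 6.15 to 91.6. The fitted log2 change of -4.02 ± 1.09 did not pass (edgeR adjusted p = 0.103), and of the alternatives it passed by DESeq2 alone (0.0107), with 0.101 by limma-voom and 0.0998 to 0.244 with 1 library left out. Its size depends on how counts of 0 are handled. With 1 library left out it ran from -7.71 without cryo replicate 3, which held all the cryo counts, to -3.20 without cryo replicate 1.

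The gene c1qa had 19, 7 and 9 counts in fresh replicates 1, 2 and 3 and 0, 9 and 8 in cryo replicates 1, 2 and 3. Cryo replicate 1, which had 16146121 counts in all, held none, and the other cryo libraries were within or above the fresh range in CPM. The log2 change was -0.04 ± 1.02 (edgeR adjusted p = 0.989), and its sign turned with upper-quartile factors, by DESeq2, and without fresh replicate 1 or cryo replicate 1. The gene c1qc had 14 counts in all and was not tested. In the GRCz12tu table the 3 genes lie next to each other on 1 chromosome.

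**Figure D4:**
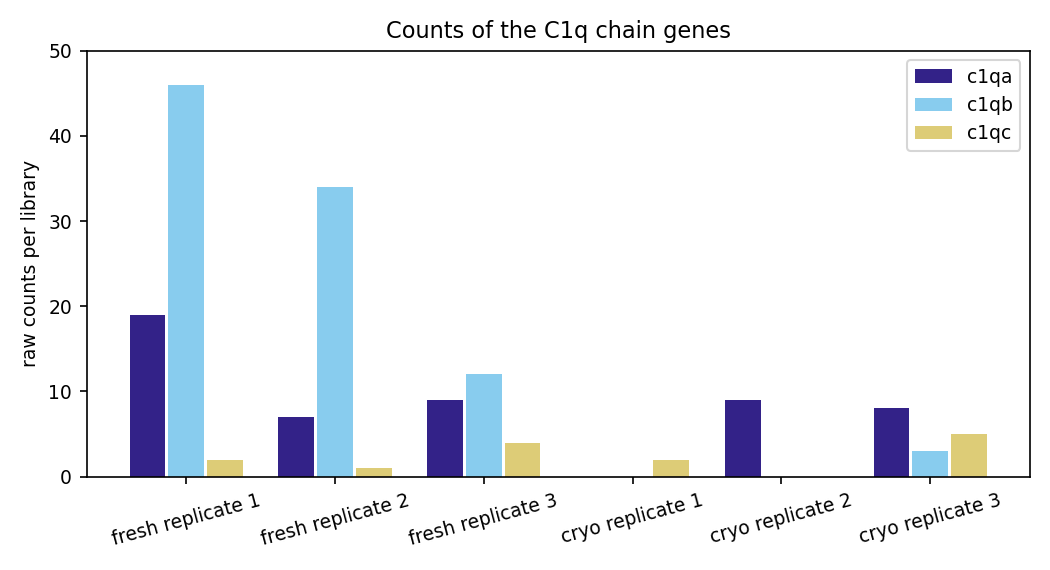
Raw counts of c1qa, c1qb and c1qc in each library; bars start at 0. The gene c1qb has 46, 34 and 12 counts in the fresh libraries and 0, 0 and 3 in the cryo libraries, and cryo replicate 1 has counts of c1qc alone.

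Summed over the C1q chains, fresh replicates 1, 2 and 3 had 3.94, 2.29 and 1.496 CPM. The same sum was 0.129, 1.28 and 1.78 CPM for cryo replicates 1, 2 and 3. The groups overlapped, since cryo replicate 3 lay above fresh replicate 3. Set against csf1ra, which was higher in every cryo library, the sum was lower in all of them. The log2 ratio of the summed C1q counts to csf1ra, with 0.5 counts added to each, was 0.26, -0.10 and -0.99 in fresh replicates 1, 2 and 3 and -5.04, -2.74 and -3.07 in cryo replicates 1, 2 and 3. The difference of -3.34 is a description with no test, since the ratio was chosen after the values of both parts were seen. For the MFAP4 sum, set against csf1ra or MPEG1, the groups overlapped. The log2 ratio of the MFAP4 sum to csf1ra, which was not planned, was 7.18 ± 1.37 in the fresh group and 7.52 ± 1.06 in the cryo group (SD, n = 3 each; exact permutation p = 0.90). That of the MFAP4 sum to the summed MPEG1 rows was 8.62 ± 0.827 and 8.13 ± 0.815 (SD, n = 3 each; exact permutation p = 0.50). With 3 libraries a group, the permutation p cannot go below 0.10, and these tests do not show that either ratio stayed the same.

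Genes listed beside C1q did not pass the edgeR test, and not all of them act after it. Of 8 tested genes of the classical pathway and its neighbours 0 were called by edgeR, 1 by DESeq2 and 0 by limma-voom, and 1 had an unadjusted edgeR p under 0.05. The median log2 change was 0.41, with 5 positive. The component gene c3a.1 had a log2 change of 1.07 ± 0.49 and c4b, cleaved by activated C1, one of 0.54 ± 0.34 (edgeR adjusted p = 0.295 and 0.436), and both were higher in all cryo libraries.

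Among other macrophage genes 2 of 13 tested genes were called, both higher, with 10 positive and a median log2 change of 0.74. Of the 13, DESeq2 called 5 and limma-voom 2, and 6 had an unadjusted edgeR p under 0.05. The list includes the MPEG1 rows given above, so its values are not separate from theirs. The gene fcer1gl, a relative of the gene for the signalling chain of antibody receptors, rose from 2.89 ± 0.508 to 11.9 ± 1.45 CPM (SD, n = 3 each; log2 2.04 ± 0.28, edgeR adjusted p = 0.0195). SLC40A1, the iron exporter ferroportin, rose from 17.1 ± 6.38 to 318 ± 225 CPM (SD, n = 3 each; log2 4.22 ± 0.71, adjusted p = 0.0315), but it is also expressed outside macrophages. The lysosomal membrane gene cd68 had 170 to 180 CPM in the fresh libraries and 145 to 154 CPM in the cryo libraries, a log2 change of -0.22 ± 0.23 that did not pass (adjusted p = 0.658). The list's mean log2 level relative to the fresh mean was 1.08, 1.11 and 1.02 in cryo replicates 1, 2 and 3 and -0.05 to 0.04 in the fresh libraries. Of its 22 matched genes 4 were at 0 in every library (1 of the MPEG1 rows, slc7a7, ccl34b.1 and cd63), and its summed level overlapped between groups.

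Among regulators of the lineage 1 of 7 tested genes was called by edgeR, 2 by DESeq2 and 1 by limma-voom, and 4 had an unadjusted edgeR p under 0.05. CEBPA, a transcription factor of myeloid cells and of hepatocytes, rose from 7.99 ± 1.24 to 23.0 ± 4.68 CPM (SD, n = 3 each; log2 1.52 ± 0.27, edgeR adjusted p = 0.0379). CEBPB, the most abundant of the list, had a log2 change of -0.92 ± 0.42 without passing (adjusted p = 0.299). The median of the list was 1.05.

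General markers of white blood cells were higher in all cryo libraries in sum, at 69.3 to 96.2 CPM against 31.9 to 47.3 CPM in the fresh libraries. Of 6 tested genes 5 were positive and had an unadjusted edgeR p under 0.05, but 0 were called by edgeR, 5 by DESeq2 and 1 by limma-voom, with a median log2 change of 1.40 and coro1a at 0 in every library. The pan-leukocyte gene ptprc is 1 of these 6 and was singled out after its values were seen. It had 9.23, 5.39 and 6.52 CPM in fresh replicates 1, 2 and 3 and 16.5, 20.6 and 21.0 CPM in cryo replicates 1, 2 and 3. Its log2 change was 1.46 ± 0.29 at an edgeR adjusted p of 0.0512. Lymphocyte genes were at low levels. The summed level of 7 T and NK cell genes was 4.29 to 6.58 CPM in fresh and 1.81 to 3.89 CPM in cryo libraries, with lck at 0 in every library, with 2 genes tested and 0 called by edgeR, 1 by DESeq2 and 1 at an unadjusted edgeR p under 0.05. The 5 B cell genes were too low to test, with a sum of 0.436 to 0.538 CPM in fresh and 0.555 to 3.36 CPM in cryo libraries and with cd79b and pax5 at 0 in every library.

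Markers of other cells of the sample moved unevenly. The sum of pancreatic genes was 129 to 228 CPM in fresh libraries; in cryo replicates 1, 2 and 3 it reached 1344, 544 and 1678 CPM, with 4 of 5 tested genes called higher. The 8 hepatocyte genes had 0 calls by edgeR, 1 by DESeq2, 2 at an unadjusted edgeR p under 0.05 and a median log2 change of 0.10. The 4 endothelial and 3 cholangiocyte genes tested had 0 calls by edgeR, DESeq2 or limma-voom, 1 and 0 at an unadjusted p under 0.05, and medians of 0.09 and 0.19. Red cell genes had a sum of 216, 160 and 78.6 CPM in cryo replicates 1, 2 and 3. The fresh libraries had 70.0 to 102 CPM, so the groups overlapped. Stellate and fibroblast genes had 126 CPM in cryo replicate 1 and 27.6 to 43.4 CPM in each of the other 5 libraries. The part of these cells in the values of the macrophage genes was not tested.

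The elastic fibre partners of MFAP4 were few. Of 5 matched genes 2 were tested, with 0 called by edgeR, 1 by DESeq2, 0 by limma-voom and 1 at an unadjusted edgeR p under 0.05. The gene fbln5, encoding the elastic fibre protein fibulin-5, had 16.1 ± 3.001 CPM in the fresh group and 52.1 ± 26.4 CPM in the cryo group (SD, n = 3 each), with no overlap and a log2 change of 1.69 ± 0.41 (edgeR adjusted p = 0.0802). Its highest library was cryo replicate 3, at 78.2 CPM, which was the lowest cryo library for the leading MFAP4 copy.

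**Figure D5:**
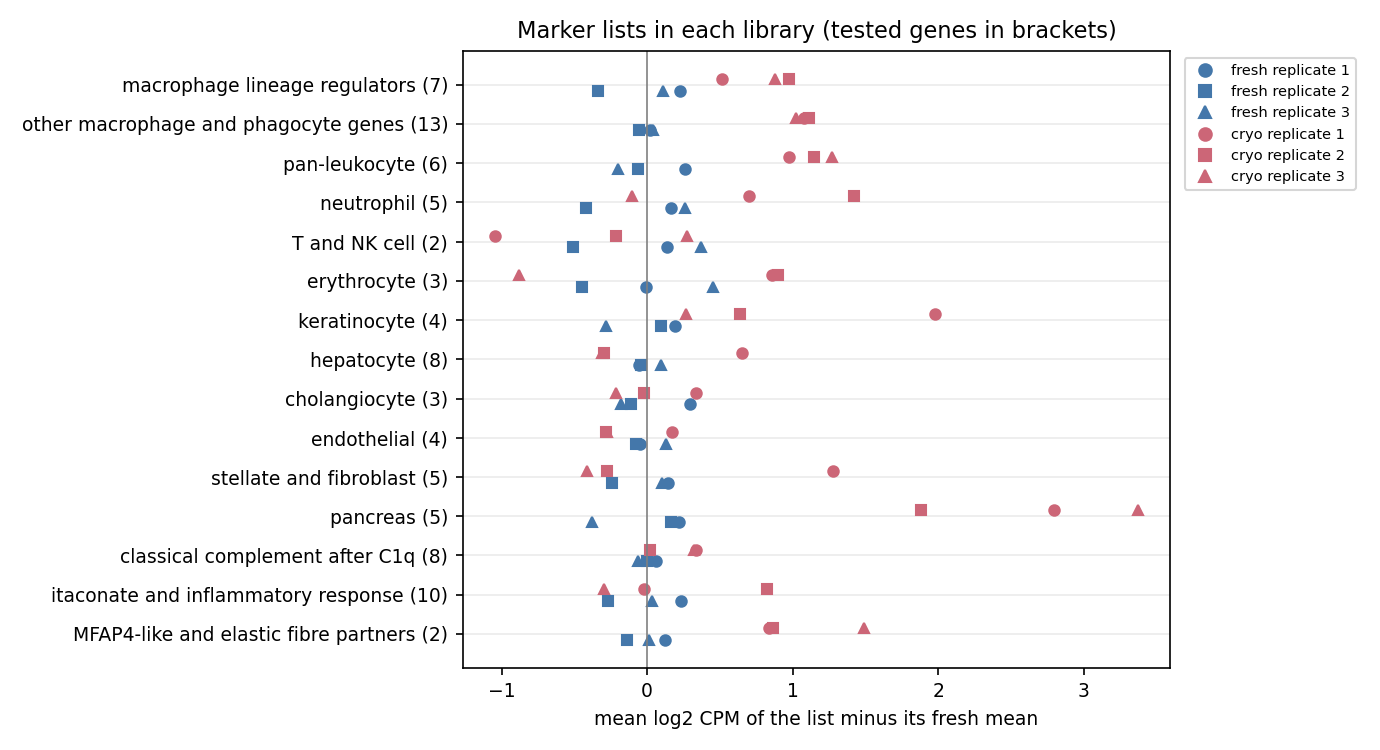
Mean log2 CPM of each marker list's tested genes minus the mean over the fresh libraries, per library; points are shaped by replicate number and coloured by group, and the number of tested genes is in brackets. The macrophage lists, the pan-leukocyte, keratinocyte and pancreas lists and that of elastic fibre partners have all cryo libraries above all fresh ones; in every other list plotted the groups overlap.

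Profiles nearest to the leading MFAP4 copy came from genes with a high value in fresh replicate 1 too, which the choice by profile favours. The lysozyme-like gene lygl1 was nearest, at a root-mean-square difference of 0.40 over 6 libraries against a median of 1.43, followed by GPR39 at 0.49 and the amylase gene amy2al1 at 0.50. lygl1 had 212, 23.3 and 28.4 CPM in fresh replicates 1, 2 and 3 and 199, 337 and 292 CPM in cryo replicates 1, 2 and 3. Fresh replicate 1 was again among the cryo libraries, and lygl1 was not called (log2 1.65, edgeR adjusted p = 0.331). For c1qa the nearest were atf5a, NUCB2 (ENSDARG00000036291) and SDF2L1, at 0.29, 0.39 and 0.40 against a median of 1.18. All 3 had their lowest value in cryo replicate 1, where c1qa had no count, which the choice by profile also favours. None was called by edgeR, DESeq2 or limma-voom, with edgeR p from 0.277 to 0.822 before adjustment.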

How the data were processed

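The counts the authors deposited are whole numbers per Ensembl gene from HISAT2 alignments, per the file headers, on GRCz11 (danRer11), per the submitters' processing notes. No source used here names the counting tool, its strand setting or the annotation release, and reads of overlapping genes or near-identical copies may be shared. Groups come from the treatment labels. The titles F1 to F3 and C1 to C3 could stand for frozen and control instead, and if so every direction would turn round.

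Symbols came from a table that named 29201 of 32520 identifiers. Of 21810 genes with any count, 12674 passed filterByExpr. Tests used edgeR 4.0.16 in R 4.3.3, with TMM factors, a quasi-likelihood fit of group and two-sided p-values. The standard error is the log2 change over the square root of F. Alternatives used limma 3.58.1 and DESeq2 1.42.0. The fit was tested on simulated counts. The planned ratio to mpeg1.1 was replaced by one to the MPEG1 rows.

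Members and lists were chosen with earlier results of these data known. Of 154 list symbols in 17 lists, 134 matched, 120 exactly and the rest through capital symbols. The genes named are all members, called list genes, the 2 most abundant of each list and the 3 nearest profiles, of which a part is printed. List sums in CPM cover all matched genes. Figures used matplotlib 3.10.9. No sequences are printed.

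Replicate pairs differed by more than sampling noise (chi-square per degree of freedom 48.0 to 389.9). Same-numbered libraries of the groups had correlations of their deviations of -0.07, -0.13 and 0.06, so replicate numbers were not taken to pair samples.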

Additional observations from a re-analysis of the deposited data

How the results depend on the processing

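Called genes numbered 249 with RLE and 259 with upper-quartile factors, 249 when abundant genes were dropped, 257 by limma-voom and 230 in thinned libraries (this last chosen after seeing the data), each with 2 or 3 called members, near the 251 and 2 reported. The counts were 705 genes and 5 members without the low-count filter, 1136 and 6 by DESeq2, and 109 and 0 when cryo replicate 1 stood alone for its group, a setting also chosen after seeing the data. With the replicate block they were 33 and 0, and the MFAP4 sum had a log2 change of 1.99; adjusted p was 0.185 for csf1ra, 0.186 for irg1l, 0.257 for c1qb and 0.151 for MFAP4 ENSDARG00000089667. Replicate numbers mark no pairing in the labels. With 1 library left out, called genes ran from 32 to 873, called members from 0 to 4, the MFAP4 sum from 1.02 to 2.91, its log2 ratio to MPEG1 from -0.91 to -0.02 and the difference in the leading copy's share from 0.11 to 0.73 percentage points. Of 178 further values under alternatives, 149 kept their side of the threshold and sign, 11 passed only under the alternative, 14 missed it only there and 4 changed sign. All 4 were c1qa, at 0.035 with upper-quartile factors, 0.063 by DESeq2, 0.58 without fresh replicate 1 and 0.67 without cryo replicate 1, over a range of -0.74 to 0.67 with 1 library left out, and the cause was not tested. DESeq2 gave mfap4.4 no adjusted p. The ratio to mpeg1.1 was not run. Depth limits the 10 untested genes and C1q, whose counts per library were 46 or fewer.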
